A study of Homo sapiens with 7 samples.

Results

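The genes described here are 30 genes of the G2 phase and of mitosis, from the cyclins and kinases that start division to the motors and chromosome proteins that carry it out. They were found by symbol in the deposited table, where all 30 were listed among 13872 genes, and all 30 passed the filter on low values that left 12705 genes for testing. The libraries came from UM-UC-3, an established line of human urothelial carcinoma. The labels name 3 clones with high aldehyde dehydrogenase (ALDH) activity (H1, H6 and H10), 3 clones with low ALDH activity (L1, L3 and L8) and 1 wild-type culture, and in the plots these clones stand as ALDH-high 1, 6 and 10 and ALDH-low 1, 3 and 8. The series title is about stem-like bladder cancer cells. The ALDH-high clones had been isolated by ALDEFLUOR, an assay in which ALDH activity makes live cells fluoresce, and grown in DMEM medium with 10% serum; the same text stands for all 7 libraries and does not say how the ALDH-low clones were isolated. Every group came from this 1 line, and genetic differences between clones were not measured here. Each clone gave 1 library, and no clone was profiled again. The spread within a group is thus the spread between clones, and the wild type has no error of its own.

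Values are CPM, read counts scaled by library size. From the smallest step between values, 1 read was worth 0.0393 to 0.041 CPM over the libraries. The lowest member value of all, CENPE in the wild type at 5.28 CPM, stood for 132 reads, with an exact 95% Poisson interval of 4.41 to 6.26 CPM that covers counting error only. CPM is not corrected for transcript length, and how reads were counted is not stated. Levels are therefore compared between libraries and not between genes. The labels were checked on ALDH1A1, an aldehyde dehydrogenase gene, which lay between 33.4 and 96.3 CPM in the ALDH-high clones, at 0 to 0.08 CPM in the ALDH-low clones and at 37.9 CPM in the wild type. Of 15 urothelial and epithelial markers, KRT7, KRT8, KRT18 and PPARG had values, with the keratin genes KRT18 at 143 to 582, KRT8 at 56.2 to 391 and KRT7 at 1.48 to 7.19 CPM and the transcription factor gene PPARG at 0.24 to 7.94 CPM over the libraries. Of the markers of leukocytes (6), fibroblasts (7) and endothelium (4) only CD68 had values (64.4 to 139 CPM). The other 11 urothelial and epithelial markers, and the rest of the other lists, were not analysed here.

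Entry into mitosis is driven by cyclin-dependent kinase 1, encoded by CDK1, bound to cyclin A or cyclin B and switched on by CDC25 phosphatases. PLK1 and the Aurora kinases then build the spindle, and the spindle checkpoint holds back the anaphase-promoting complex until every chromosome is attached, after which cyclin B and securin are degraded. Most of these genes are transcribed in a wave late in the cell cycle, and their RNA is widely read as a measure of how much of a culture is dividing. In bulk RNA, fewer dividing cells and less of a transcript per dividing cell cannot be told apart.

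No member passed the test between ALDH-high and ALDH-low clones. The test was limma on log2(CPM + 1) with Benjamini-Hochberg adjustment over all 12705 genes, and it passed 0 of 30 members at a threshold of 0.05, where the share over all tested genes was 1.34% (0.645% with the higher mean in ALDH-high clones and 0.693% with the lower). The smallest adjusted p among the members was 0.127, that of CDK1 (limma). At an unadjusted p under 0.05 there were 3 members (CDK1, CCNB2 and DLGAP5), or 10% against 19.7% of all tested genes. The ranges of the 2 groups were apart in 4 members (CDK1, TTK, TPX2 and DLGAP5), or 13.3% against 26.1% of all tested genes. The mean was lower in ALDH-high clones for 22 members (73.3%, against 49.6% of all tested genes) and higher for 8, with a median difference of -0.17 log2 units, beside 0.00 over all tested genes. In the self-test on simulated libraries, limma found 50% of 100 genes changed 2-fold and 94% of 100 changed 4-fold, so a missing call does not show that a gene stayed the same. The intervals of the differences, each for 1 gene and not adjusted for the number of genes, give the bound. For 26 of 30 members (86.7%, against 70.4% of all tested genes) the 95% interval lay inside 1 log2 unit (2-fold) in both directions. For CCNB2, PLK1, NUSAP1 and MKI67 it reached past 1 log2 unit on the side of lower expression in ALDH-high clones.

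**Figure D1:**
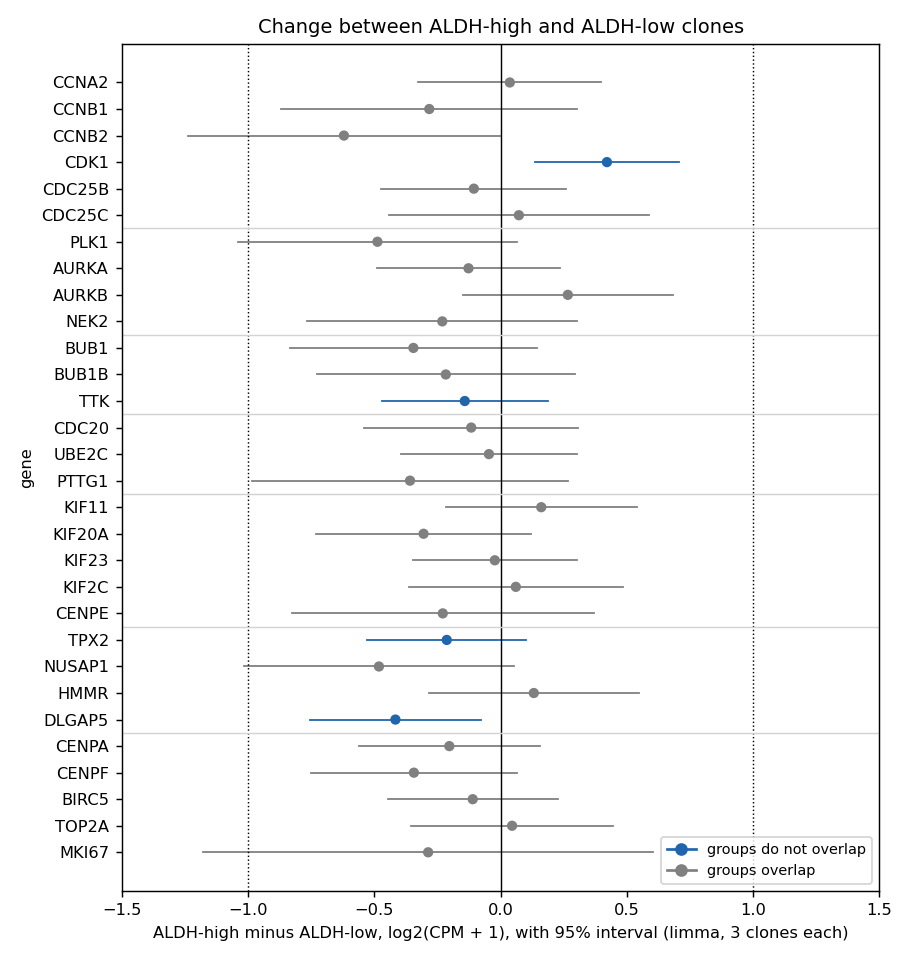
Difference between ALDH-high and ALDH-low clones for each member in log2(CPM + 1), with its 95% interval from limma (3 clones per group), ordered by role with grey lines between roles. Blue marks the 4 members whose groups did not overlap, dotted lines mark 2-fold, and the estimates run from -0.62 (CCNB2) to 0.42 (CDK1).

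Among the cyclins and the enzymes that activate CDK1, none of the 6 genes passed, with the estimate for CDK1 above 0 and those for both B-type cyclins below it. CDK1 had 232, 219 and 244 CPM in H1, H6 and H10, against 175, 170.2 and 172 CPM in L1, L3 and L8, and 189 CPM in the wild type. Every ALDH-high clone lay above every ALDH-low clone, and the ALDH-low clones lay within 1.03-fold of each other. The difference was 0.42 log2 units (SE 0.12, interval 0.14 to 0.71), a ratio of 1.34 that did not pass (limma adjusted p = 0.127).

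CCNB2, a B-type cyclin, had 136, 67.4 and 71.2 CPM in H1, H6 and H10, against 152, 116 and 135 CPM in L1, L3 and L8, and 131 CPM in the wild type. H1 lay inside the ALDH-low range and H6 and H10 lay well below it. The difference was -0.62 log2 units (SE 0.27, interval -1.24 to 0.00, limma adjusted p = 0.253). Without H1 it was -0.94 log2 units and still did not pass (limma adjusted p = 0.0514). Over all clones left out in turn it ran from -0.94 to -0.44 log2 units, with limma adjusted p up to 0.492. The omission of H1 was picked out, here and for CCNB1, PLK1, PTTG1 and MKI67 below, after the values were seen.

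CCNB1, the major mitotic cyclin, gave 217, 109 and 135 CPM in H1, H6 and H10 and 183, 152 and 207 CPM in L1, L3 and L8, with 145 CPM in the wild type. Here too H1 was the highest of its group, and of all 7 libraries. The difference of -0.28 log2 units (interval -0.87 to 0.30) became -0.56 without that clone (limma adjusted p = 0.583 and 0.155). Over all clones left out in turn it ran from -0.56 to -0.07 log2 units. CCNA2, the cyclin of S phase and G2, ranged from 88.2 to 123 CPM over the clones with group means of 108 ± 5.20 (ALDH-high) and 106 ± 17.3 CPM (ALDH-low, SD, n = 3 each). The phosphatase genes CDC25B and CDC25C ranged from 30.7 to 40.1 and from 18.2 to 30.2 CPM, with differences of -0.11 and 0.07 log2 units.

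The ratio of cyclin RNA to CDK1 RNA can be read within a library, where scaling cancels. Protein levels were not measured here. The CCNB2 to CDK1 ratio of CPM was 0.585, 0.308 and 0.292 in H1, H6 and H10, against 0.868, 0.684 and 0.786 in L1, L3 and L8, and 0.692 in the wild type. The wild type lay in the ALDH-low range. CDK1 alone already separated the groups, so a ratio to it tends to do so too. For CCNB1 the ratio was 0.934, 0.496 and 0.555 against 1.04, 0.895 and 1.20, with H1 inside the ALDH-low range. These ratios were chosen after the values were seen and were not tested, and their separation supports nothing. With CDK1 as the divisor the share of all tested genes with groups apart went from 26.1% to 45.9%, and 21 of the 29 other members (72.4%) were apart.

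**Figure D2:**
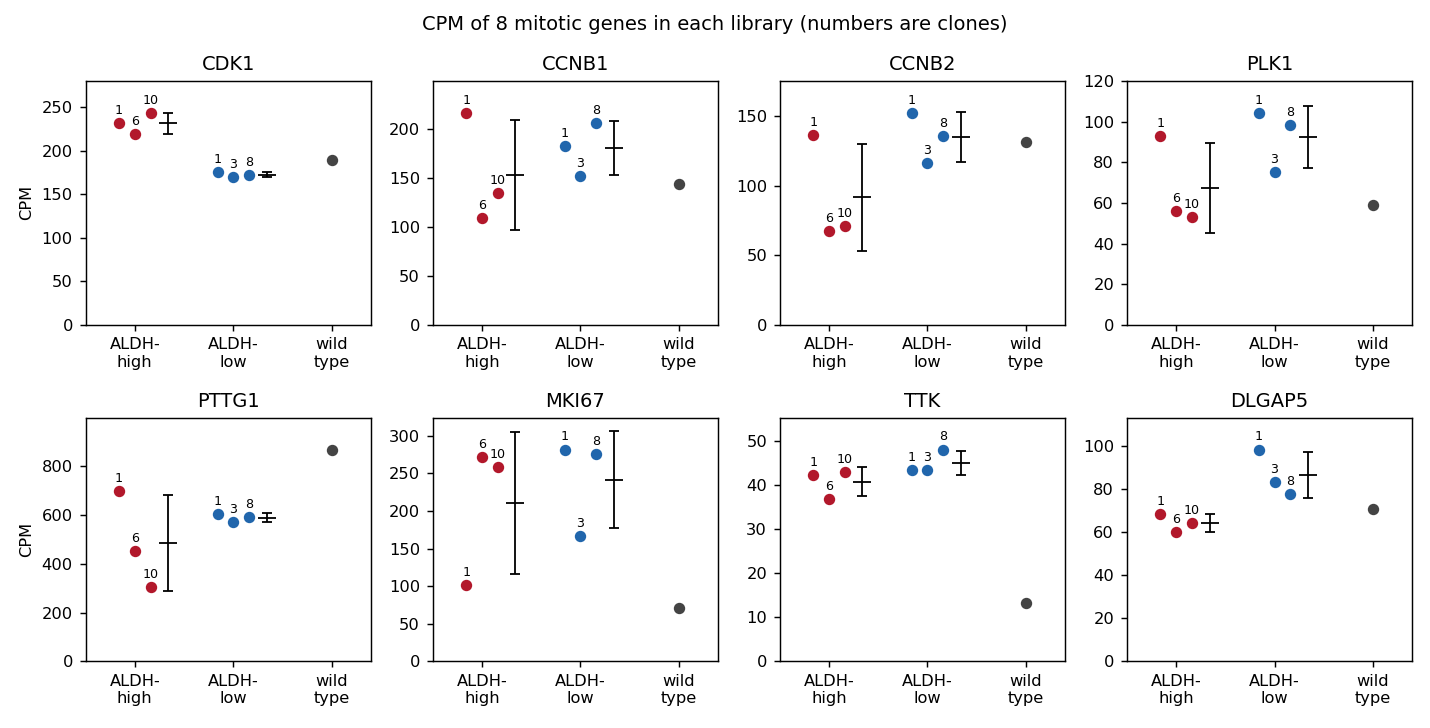
CPM of 8 members in each library, with the clone number above each point and the mean ± SD of the 3 clones of a group beside it. H1 sits at 136 CPM for CCNB2 while clones 6 and 10 sit at 67.4 and 71.2, and for MKI67 it sits at 101 CPM against 272 and 258.

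The mitotic kinases overlapped between the groups in all 4 genes. PLK1, which acts at centrosomes, kinetochores and the cleavage site, had 93.1, 56.0 and 53.0 CPM in H1, H6 and H10 and 104, 75.4 and 98.2 CPM in L1, L3 and L8, with 58.9 CPM in the wild type. As for CCNB2, H6 and H10 were the lowest of the clones and L1 the highest. The difference of -0.49 log2 units (interval -1.04 to 0.07) was -0.74 without H1 (limma adjusted p = 0.31 and 0.0911). Over all clones left out in turn it ran from -0.74 to -0.34 log2 units. AURKB, the kinase of the chromosomal passenger complex, had 172, 203 and 213 CPM against 156, 136 and 202 CPM and 122 CPM in the wild type. Its groups overlapped through L8, and the difference was 0.27 log2 units (interval -0.15 to 0.68). AURKA, the spindle pole kinase, had 104, 101 and 110.0 CPM against 123, 94.6 and 129 CPM, and NEK2, a kinase of centrosome separation, ranged from 18.2 to 29.3 CPM over the clones.

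The 3 spindle checkpoint kinases all had lower means in ALDH-high clones, and none passed. TTK, which places the other checkpoint proteins at unattached kinetochores, had 42.4, 37.0 and 43.0 CPM in H1, H6 and H10 and 43.5, 43.6 and 48.2 CPM in L1, L3 and L8. Its groups did not overlap but nearly touched, and the difference was -0.14 log2 units (interval -0.47 to 0.19, limma adjusted p = 0.623). The wild type stood far below at 13.2 CPM. BUB1, which recruits checkpoint and centromere proteins, had 53.9, 37.4 and 65.5 CPM against 61.2, 62.5 and 71.8 CPM, with H6 lowest of all libraries, and BUB1B, whose protein BubR1 inhibits CDC20, ranged from 31.7 to 56.2 CPM over the clones.

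Of the genes around the anaphase-promoting complex, PTTG1, which encodes securin, separated the ALDH-high clones most. It had 696, 453 and 306 CPM in H1, H6 and H10, while L1, L3 and L8 lay close together at 604, 569 and 592 CPM, and the wild type was highest at 867 CPM. The ALDH-high clones spanned 2.28-fold and the ALDH-low clones 1.06-fold. The difference between groups was -0.36 log2 units (interval -0.99 to 0.27), and -0.66 without H1 (limma adjusted p = 0.506 and 0.121). Over all clones left out in turn it ran from -0.66 to -0.07 log2 units. CDC20, the activator that the checkpoint restrains, had group means of 307 ± 30.1 and 337 ± 69.0 CPM, and UBE2C, its ubiquitin-conjugating enzyme, 380.1 ± 37.2 and 393 ± 44.1 CPM (ALDH-high and ALDH-low, SD, n = 3 each).

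The kinesin motors overlapped between the groups in all 5 genes. KIF11, which pushes the spindle poles apart, had group means of 114 ± 4.83 and 103 ± 18.7 CPM, KIF23, a motor of the midzone and cytokinesis, 128 ± 7.87 and 131 ± 14.6 CPM, and KIF2C, a microtubule depolymerase, 32.0 ± 3.03 and 30.9 ± 6.16 CPM (ALDH-high and ALDH-low, SD, n = 3 each). KIF20A, a motor of cytokinesis, had 183, 151 and 119 CPM in H1, H6 and H10 and 188, 163 and 204 CPM in L1, L3 and L8, a difference of -0.31 log2 units (interval -0.73 to 0.12). CENPE, a kinetochore motor, ranged from 5.83 to 11.7 CPM, with the highest value in L8.

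Among the 4 spindle-associated proteins none passed, and the groups were apart in DLGAP5 and TPX2, where 26.1% of all tested genes were apart. DLGAP5, which stabilises microtubules near the chromosomes, had 68.6, 60.0 and 64.3 CPM in H1, H6 and H10 and 98.4, 83.2 and 77.8 CPM in L1, L3 and L8, with 70.9 CPM in the wild type. The difference was -0.42 log2 units (SE 0.15, interval -0.75 to -0.08), a ratio of 0.744 that did not pass (limma adjusted p = 0.178). TPX2, the spindle activator of AURKA, had 292, 331 and 299 CPM against 392, 335 and 343 CPM, with H6 just below L3 (difference -0.21 log2 units, limma adjusted p = 0.43). NUSAP1, which bundles spindle microtubules, had 49.6, 58.5 and 43.0 CPM against 78.4, 49.97 and 88.1 CPM, a difference of -0.48 log2 units (interval -1.02 to 0.05). HMMR, a hyaluronan receptor that also binds spindle microtubules, ranged from 68.0 to 104 CPM over the clones, with its highest value in H1.

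Among chromosome proteins, MKI67, which encodes the proliferation antigen Ki-67, had the widest range of any member over the clones, 2.79-fold. MKI67 had 101, 272 and 258 CPM in H1, H6 and H10 and 282, 167 and 275 CPM in L1, L3 and L8, with 71.1 CPM in the wild type. H1, the highest of its group for both B-type cyclins and PLK1, was the lowest clone of all for MKI67. The difference of -0.29 log2 units (interval -1.18 to 0.60) turned to 0.17 without that clone (limma adjusted p = 0.722 and 0.732). TOP2A, the topoisomerase that untangles chromosomes, had 164.5, 200.3 and 205 CPM against 179.96, 154 and 221 CPM, also with H1 lowest of its group. CENPA, the centromeric histone, CENPF, a kinetochore protein, and BIRC5, a chromosomal passenger subunit also called survivin, had differences of -0.20, -0.34 and -0.11 log2 units, with limma adjusted p from 0.332 to 0.715.

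**Figure D3:**
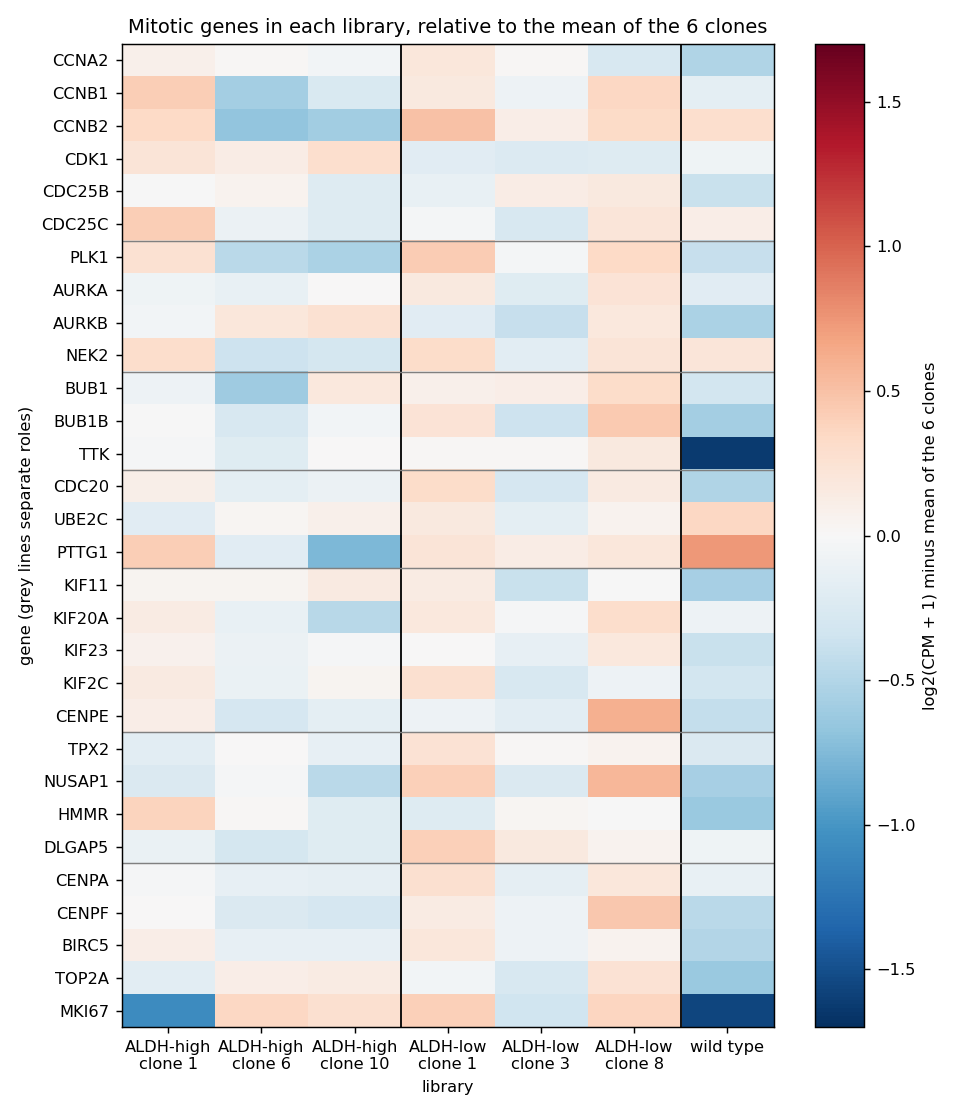
Log2(CPM + 1) of each member in each library minus its mean over the 6 clones, with red above and blue below that mean, black lines between groups and grey lines between roles. L1 and L8 are mostly red, L3 and H6 and H10 are mostly pale or blue, and the wild type is darkest for TTK and MKI67.

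Differences between clones of 1 group ran through many members at once. H1 was the highest of the ALDH-high clones in 18 of 30 members (60%), against 41.7% of all tested genes, and the lowest in 6 members (AURKB, UBE2C, KIF11, TPX2, TOP2A and MKI67). L3 was the lowest of the ALDH-low clones in 24 of 30 members (80%), against 34.7% of all tested genes. The median member stood 0.06, -0.13 and -0.14 log2 units from its clone mean in H1, H6 and H10, and 0.18, -0.15 and 0.19 log2 units in L1, L3 and L8. L3 was thus near the level of H6 and H10, and the ALDH-low group held both the lowest and the highest median of the 6 clones. The same medians over all tested genes lay between -0.03 and 0.04.

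Over the 6 clones, 42 of the 435 pairs of members had a Pearson r above 0.8 (9.66%), against 4.43% of all pairs of tested genes, and the median r was 0.36 against 0.01. These are descriptions over 6 points that share libraries and scaling. Both groups were pooled, so an offset between ALDH-high and ALDH-low clones enters r. This holds for CDK1, DLGAP5 and TPX2, whose groups did not overlap. CCNB2 and PLK1 were the closest pair (r = 0.98), and next were NEK2 with BIRC5 and AURKA with BUB1B (both r = 0.97). CCNB1, CCNB2, PLK1 and NEK2 all ran together with r from 0.89 to 0.98, and BIRC5 ran with them at r from 0.83 to 0.97. Further down, and named as examples only, MKI67 ran with UBE2C (r = 0.91) and AURKB with TOP2A (r = 0.88). The most negative pairs were HMMR with MKI67 (r = -0.86), HMMR with UBE2C (r = -0.84), CDK1 with DLGAP5 (r = -0.81) and CDK1 with TPX2 (r = -0.79).

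**Figure D4:**
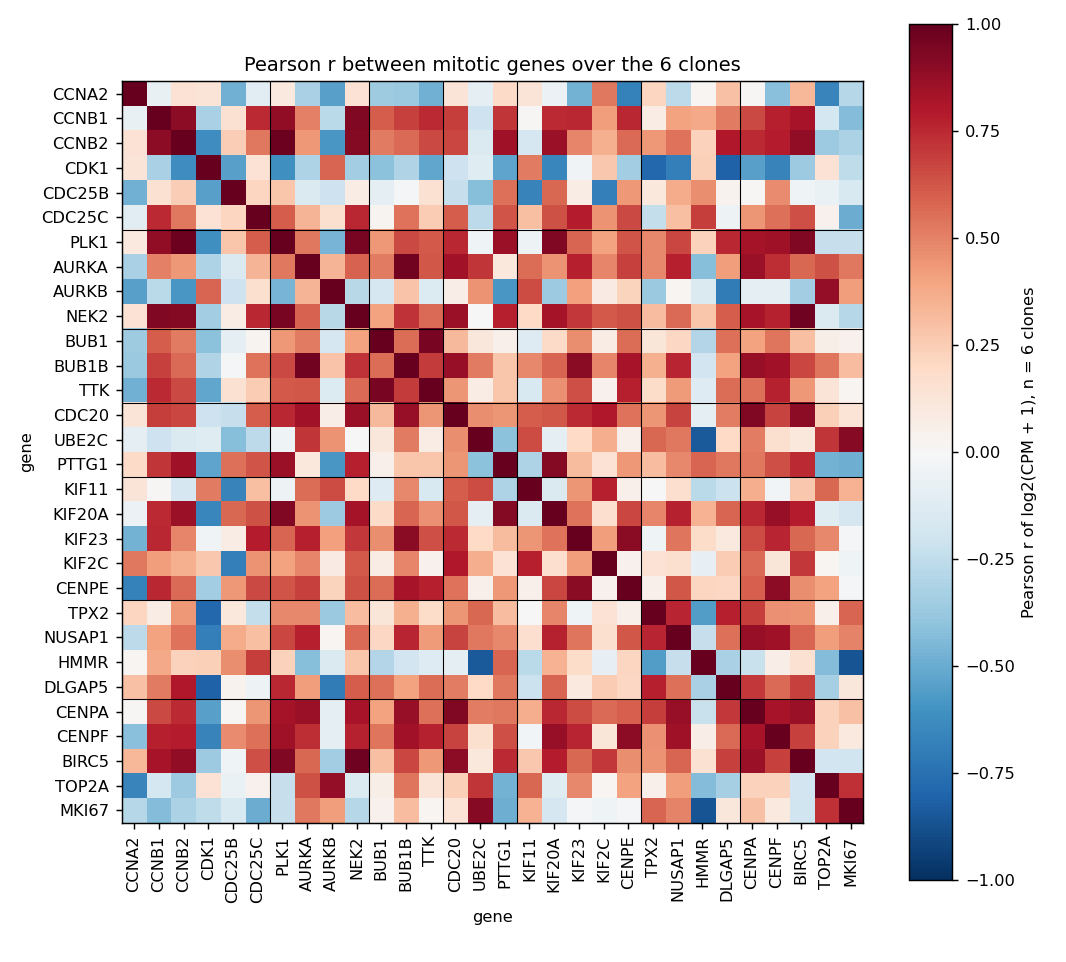
Pearson r of log2(CPM + 1) between members over the 6 clones, with red positive and blue negative, in order of role with black lines between roles. Red cells, not all side by side, join CCNB1, CCNB2, PLK1 and NEK2 (r from 0.89 to 0.98), while CDK1 holds the bluest row.

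The promoters of the members were searched for the textbook elements of mitotic promoters, the CCAAT box and the cell cycle genes homology region. The letters searched on both strands were CCAAT for the box, with TTTGAA as the usual core of the homology region and TTCGAA as a variant of it, in windows from 250 bases before to 50 bases after each start in a RefSeq promoter table (GRCh38.p14). The table matched 25 of the 30 members by symbol, some with several starts, and held no entry for TTK, AURKA, TPX2, BIRC5 and UBE2C. CCAAT was found for 22 of the 25 (88%), against 44% of 8278 tested genes in the table, and TTTGAA for 15 of the 25 (60%), against 13.1%. Both were found for 14 of the 25 members (56%), against 5.45% of tested genes and 7.26% of all 27305 genes in the table, and TTCGAA for 2 members (8%), against 2.42%. Counted by window, CCAAT was in 79.4% of member windows and 34.6% of all 35116 windows, and TTTGAA in 50% and 15.2%. Matches are letters in a window, not measured binding sites.

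The 150 bases before the start are shown for CDK1 (chr10:60778328-60778477, plus strand, the more downstream of its 2 starts), CCNB1 (chr5:69167000-69167149, plus), CCNB2 (chr15:59104996-59105145, plus), PLK1 (chr16:23678739-23678888, plus), KIF20A (chr5:138178962-138179111, plus) and MKI67 (chr10:128126424-128126573, minus), because these genes carry the patterns above. Sequences run 5′ to 3′ along the gene, and capitals mark CCAAT or its reverse complement ATTGG, and TTTGAA. In MKI67 a TTTGAA and an ATTGG overlap.
CDK1: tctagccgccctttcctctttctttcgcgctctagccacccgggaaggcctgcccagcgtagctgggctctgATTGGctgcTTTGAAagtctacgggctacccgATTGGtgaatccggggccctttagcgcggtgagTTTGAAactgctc
CCNB1: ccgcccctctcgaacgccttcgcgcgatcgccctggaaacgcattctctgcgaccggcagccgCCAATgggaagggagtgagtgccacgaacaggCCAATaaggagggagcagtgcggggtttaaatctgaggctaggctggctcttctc
CCNB2: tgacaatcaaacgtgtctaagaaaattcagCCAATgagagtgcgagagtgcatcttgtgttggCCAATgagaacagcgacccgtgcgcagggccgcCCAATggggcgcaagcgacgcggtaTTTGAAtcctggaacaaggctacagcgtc
PLK1: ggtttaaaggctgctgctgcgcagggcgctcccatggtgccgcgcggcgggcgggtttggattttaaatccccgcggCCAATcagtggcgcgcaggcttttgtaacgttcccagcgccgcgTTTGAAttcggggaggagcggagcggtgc
KIF20A: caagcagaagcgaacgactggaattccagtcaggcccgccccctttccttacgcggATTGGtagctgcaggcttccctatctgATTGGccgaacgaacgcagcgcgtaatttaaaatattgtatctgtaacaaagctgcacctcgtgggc
MKI67: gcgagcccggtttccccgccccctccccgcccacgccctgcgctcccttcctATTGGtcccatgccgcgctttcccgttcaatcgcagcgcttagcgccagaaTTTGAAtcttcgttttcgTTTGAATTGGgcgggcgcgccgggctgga
The closest pair, CCNB2 and PLK1, both hold TTTGAA from base -29 to -24, where -1 is the base before the start, with CCAAT upstream on the same strand, from -54 to -50 in CCNB2 and from -73 to -69 in PLK1. CCNB1 has 2 CCAAT boxes in the same orientation, from -87 to -83 and from -55 to -51, and no TTTGAA in this window, and KIF20A has ATTGG at 2 places and no TTTGAA. CDK1 holds TTTGAA from -13 to -8 and from -69 to -64, with ATTGG between and before them. MKI67, which did not run with CCNB2 or PLK1 (r = -0.32 and -0.23), holds both kinds of match as well, with TTTGAA also from -29 to -24. These genes were picked after the values were seen, and a link between matches and r was not tested.

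Of 168 other genes of the same process on the lists made for it, 166 were in the table and 165 were tested, and limma passed 0 of them, with 29 at an unadjusted p under 0.05 (17.6% against 19.7% of all tested genes). Of the 165 genes, 90 had higher and 75 lower means in ALDH-high clones, with a median of 0.02 log2 units. Their groups were apart in 41 (24.8%), near the 26.1% of all tested genes. TMPO, a nuclear lamina protein gene, had the smallest adjusted p, at 273, 303 and 273 CPM in H1, H6 and H10 against 184, 180.2 and 145 CPM in L1, L3 and L8 (0.74 log2 units, limma adjusted p = 0.0559). KIF15, a kinesin that backs up KIF11, had 17.4, 15.8 and 14.8 CPM against 8.36, 8.88 and 8.24 CPM, with every ALDH-high clone above every ALDH-low clone (0.84 log2 units, limma adjusted p = 0.0607). PRC1, which bundles midzone microtubules, was lower in ALDH-high clones, at a mean of 80.6 against 120.5 CPM (limma adjusted p = 0.106).

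By role, the medians of these other lists ran from -0.10 log2 units for 12 cytokinesis and passenger genes to 0.20 for 8 spindle checkpoint genes. At kinetochores CLASP2, a microtubule plus-end protein, was at 27.7 against 15.1 CPM and SPC25, a subunit of the NDC80 complex, at 27.6 against 46.1 CPM, so the 2 genes of that list with the smallest p pointed in opposite directions. SGOL1, the protector of centromeric cohesion, was at 46.3 ± 0.25 against 29.7 ± 4.54 CPM, and CEP55, a protein of the final cut between daughter cells, at 92.3 ± 21.5 against 165.00 ± 53.7 CPM (ALDH-high and ALDH-low, SD, n = 3 each). Separase, encoded by ESPL1, was at 31.9 against 22.4 CPM and the condensin gene NCAPG at 86.2 against 66.9 CPM. Subunits and partners of the anaphase-promoting complex were split, with CDC16 at 41.6 against 69.1 CPM and the phosphatase gene CDC14A at 8.56 against 4.70 CPM. ENSA and ARPP19, inhibitors of the phosphatase that opposes CDK1, were both lower in ALDH-high clones, at 168 against 226 CPM and 94.4 against 135 CPM. None of these passed (limma adjusted p from 0.0942 to 0.194).

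Of the remaining named genes, the kinase gene MELK was at 54.6 against 74.2 CPM, the CCAAT-binding subunit gene NFYC at 73.7 against 53.9 CPM and TFDP1, a partner of E2F factors, at 96.3 against 124 CPM. The checkpoint genes TRIP13 and ZW10 were at 125.1 against 97.0 and 48.9 against 40.03 CPM (limma adjusted p from 0.131 to 0.503 over these 5). The transcription factor genes FOXM1 and MYBL2, which drive mitotic transcription, were picked out after their values were seen. FOXM1 had group means of 72.8 ± 16.1 and 70.8 ± 6.04 CPM. MYBL2 had 49.9, 166 and 189 CPM in H1, H6 and H10, 114, 105 and 112 CPM in L1, L3 and L8, and 15.6 CPM in the wild type, so that it was lowest in the same clone and library as MKI67. CDKN1A, the CDK inhibitor p21, had 58.0, 132 and 124 CPM in H1, H6 and H10 and 68.4, 72.2 and 71.1 CPM in L1, L3 and L8. Without H1, CDKN1A was higher in ALDH-high clones (0.85 log2 units, limma adjusted p = 0.0458). The kinetochore gene SKA2 was then lower (-1.03 log2 units, limma adjusted p = 0.048). With all clones neither passed (limma adjusted p = 0.415 and 0.12). H1 lay apart from H6 and H10 in both genes, with SKA2 at 69.1, 43.3 and 40.1 CPM in H1, H6 and H10. Both were named after these values were seen, so their passing without H1 supports nothing. Without H1, 2 of 165 other mitotic genes passed, beside 115 of all 12705 tested genes.

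The nearest group in the cell cycle, genes of G1/S and DNA replication, showed another order of libraries. Of 38 such genes 37 had higher means in ALDH-high clones (97.4%, against 50.4% of all tested genes), with a median of 0.38 log2 units. Their groups were apart in 23 (60.5%, against 26.1%). Of the 38 genes 1 passed (1.34% of all tested genes did), MCM4, a helicase subunit (0.76 log2 units, limma adjusted p = 0.0406), with MCM7 next at 0.70 log2 units (limma adjusted p = 0.0585). MCM4 no longer passed when any clone other than H1 was left out (limma adjusted p from 0.0609 to 0.168). The median replication gene stood at 0.08, 0.18 and 0.30 log2 units from the clone mean in H1, H6 and H10 and at -0.24, -0.22 and -0.10 in L1, L3 and L8. The difference between this list and the mitotic members was not tested.

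**Figure D5:**
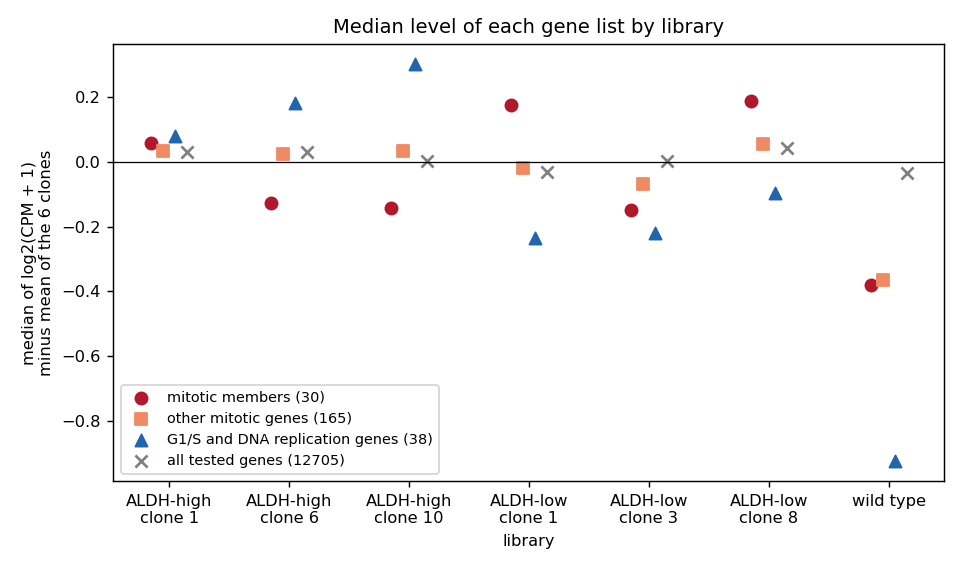
Median over each gene list of log2(CPM + 1) minus the mean of the 6 clones, by library, with points set side by side within a library. Replication genes are above 0 in the 3 ALDH-high clones and below 0 in the 3 ALDH-low clones, the mitotic members are above 0 in H1 and L1 and L8, and both are lowest in the wild type (-0.93 and -0.38).

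The wild type had less of most mitotic transcripts than any clone. It lay below all 6 clones in 17 of 30 members (56.7%), against 25.4% of all tested genes, above all 6 in 2 (6.67%, against 22.6%), and within their range in 11. TTK and MKI67 were at 0.308 and 0.315 of the clone mean, and HMMR and TOP2A at 0.636 and 0.637. The 2 members above every clone were PTTG1, at 1.62 times the clone mean, and UBE2C, at 492 CPM and 1.27 times the clone mean. CCNB2, NEK2 and CDC25C lay slightly above the clone mean and within the clones, at 1.16, 1.14 and 1.07 times. The other mitotic genes lay below all clones in 87 of 165 (52.7%) and the replication genes in 35 of 38 (92.1%). The 1 wild-type library was described without a test, and whether another wild-type culture would differ from the clones in the same way was not measured.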

How the data were processed

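The authors deposited CPM per gene for 7 libraries, rounded to 2 decimals, in columns that sum to 967084.9 to 1019855.1. BWA 0.5.9 is named in the submitters' processing notes, with hg19 and mm9 as builds, and neither build has a stated role. Counting and strand are not given in the sources used here. Headers carry the name of a package for 5′-end tags (CAGEr), per the file headers.

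A gene was tested if 3 or more of the 6 clones reached 1 CPM. Of the 12705 tested genes, 920 shared all their values with another gene, and none of the members did. The fit was limma 3.58.1 (R 4.3.3) on log2(CPM + 1), two-sided, with a variance trend, Benjamini-Hochberg adjustment and a threshold of 0.05. It was tested on simulated data. P-values are for the difference between groups, set against the spread between clones. Alternatives changed the pseudocount (0.1 or 5), the filter (none, or 5 CPM), the scaling, the variance model and the samples in the fit. Others kept 1 gene per set of identical values, or left out each clone in turn.

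All 30 members are named, with the 2 smallest p of each of 9 lists of other mitotic genes and of the G1/S list. FOXM1, MYBL2, CDKN1A and SKA2 were added after their values were seen. The members and lists were chosen with earlier results of these data known.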

Additional observations from a re-analysis of the deposited data

How the results depend on the processing

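With all clones kept, 0 members and 0 of the other mitotic genes passed under any of the 10 alternatives, no member changed the sign of its difference, and the median member difference stayed between -0.19 and -0.15 log2 units. Leaving out each clone in turn gave 0 members every time, with the smallest member adjusted p at 0.0514 (CCNB2 without H1), a median member difference from -0.28 to -0.09, and 0 to 2 of the other mitotic genes (2 without H1). In 10 members, all with limma adjusted p of at least 0.58, the sign turned when a clone was left out, and their differences ranged from -0.0914 to 0.1442 (CCNA2), -0.2902 to 0.0088 (CDC20), -0.1215 to 0.1978 (CDC25C), -0.3762 to 0.0162 (CENPE), -0.0262 to 0.2675 (HMMR), -0.1013 to 0.0583 (KIF23), -0.0588 to 0.2085 (KIF2C), -0.5365 to 0.1735 (MKI67), -0.0775 to 0.1805 (TOP2A) and -0.1375 to 0.0363 (UBE2C). The count of all tested genes that passed, 170, was 86 with a filter at 5 CPM and 34 to 173 with a clone left out. It was 34 without H10, 37 without L8, 44 without L1, 57 without H6, 115 without H1 and 173 without L3. The G1/S count of 1 was 0 with that filter or with eBayes without trend, and 0 to 1 with a clone left out. Applying the alternatives to these 2 counts was decided after seeing the data. The cause of these changes was not tested. The range of the clone medians of the members was 0.34 log2 units, and 0.31 to 0.37 under other pseudocounts and scalings. Count tests (edgeR and DESeq2) were planned on recovered reads and were not run: values were whole reads within the rounding of the file in all 7 libraries, but in 2 of them (H6 and L3) too few were whole at a stricter tolerance. No paired analysis was possible because the clone numbers do not pair ALDH-high with ALDH-low clones. The lowest member value rests on 132 reads, and each group holds 3 clones.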
